A study of Equus caballus with 4 samples.

Results

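Muscle loses protein largely through ubiquitin ligases, enzymes that tag proteins with ubiquitin for the proteasome. Described here are 10 genes of that pathway: the ligases *TRIM63*, *TRIM54*, *TRIM55*, *TRIM32*, *FBXO32*, *FBXO30* and *NEDD4*, and the transcription factors *FOXO1*, *FOXO3* and *FOXO4*. They were taken by gene name, with all 31 probes that carry these names, from the 24998 gene names on the array. All 10 are among the 15614 genes with a tested probe. All 31 probes were well above background in both channels on every array.

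The samples were cultures of satellite cells, the stem cells of muscle fibres, from the semitendinosus muscle of healthy colts 6 months old. After 2 days in differentiation medium with a low share of horse serum, HMB (β-hydroxy-β-methylbutyrate, a leucine metabolite) was added for 24 h. Control cells stayed in the same medium without HMB, and both were harvested on day 3 of differentiation. RNA of treated cells (labelled Cy5) and control cells (Cy3) was hybridised together on each of 4 arrays of 1 slide. The description field of all 4 samples calls the treated cells GO-treated, while the titles, source names and treatment protocol give HMB, which is used here. The dose is 50 µg in the sample labels and 50 µM in the methods. The dyes were not exchanged on any array, so from the arrays alone a bias of a probe towards either dye cannot be told apart from an effect of HMB. The paper also measured *TRIM63* and *MYF5* by RT-qPCR and reports changes that overlapped with those on the arrays. The paper does not state which colts' cells were on which array.

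Akt, a kinase activated by insulin and IGF-1, phosphorylates FOXO factors and keeps them out of the nucleus. When Akt activity is low, FOXO factors enter the nucleus and switch on *FBXO32* (atrogin-1), *TRIM63* (MuRF1) and genes of autophagy. Transcripts of both ligases rise in many forms of muscle wasting, and they are widely used as markers of atrophy. HMB is taken as a supplement against muscle loss, which raises the question of whether these transcripts are lower in treated cells.

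Values are log2 ratios of HMB-treated over control cells, so that a negative value stands for less mRNA after HMB. Where a gene has several tested probes, the brightest on average stands for it. A change is called where the P of limma's moderated test, adjusted over all 27383 tested probes by the method of Benjamini and Hochberg, was at most 0.05. By this rule, 5 of the 10 genes fell with HMB and none rose. The 5 were *TRIM55*, *TRIM63*, *FOXO1*, *TRIM54* and *NEDD4*. Among all tested genes, 22.4% were called in either direction and 11.6% were called lower. By probe, 8 of 31 were called, all lower, against 22.8% of all tested probes. The probe count is close to that background, since 19 of the 31 probes belong to *FOXO3*, *FOXO4* and *TRIM32*, which hold no called probe. The median over the 10 genes was -0.31, and over all tested genes 0.02.

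**Figure D1:**
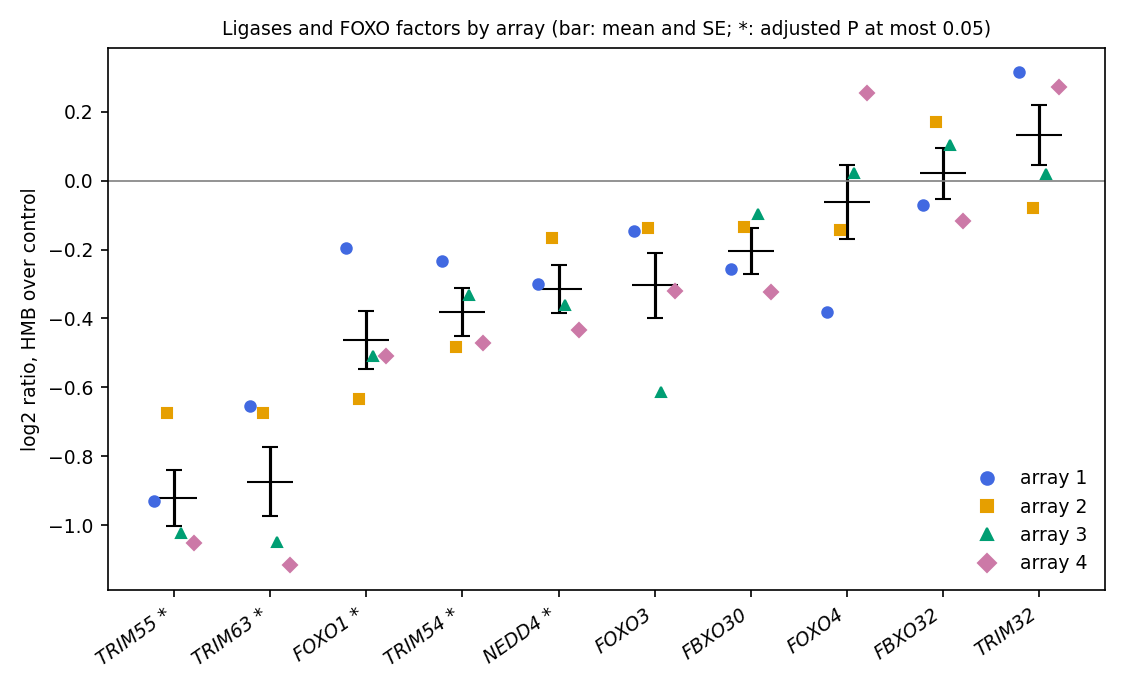
The log2 ratio of HMB-treated over control cells (vertical axis) for the representative probe of each of the 10 genes, ordered by mean. Points are the 4 arrays, the horizontal bar is the mean and the whisker its standard error, and stars mark the 5 called genes, for which every array is below 0.

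The ligases of the MuRF family are RING-finger proteins that sit in the sarcomere at titin and the M-line or Z-disc. *TRIM63* encodes MuRF1, *TRIM55* MuRF2 and *TRIM54* MuRF3. MuRF1 tags myosin heavy chain and other proteins of the thick filament, whereas MuRF2 and MuRF3 also bind microtubules and take part in sarcomere assembly. The probes are shown because the largest changes rest on them. *TRIM63* has 4 probes, of which 3 are copies of each other moved by 1 base, and the fourth lies just upstream. The capitals mark the bases that the upstream probe (chr2:27768741-27768800 of EquCab1, plus strand) and the first downstream probe (chr2:27768789-27768848) have in common.
TRIM63 upstream probe: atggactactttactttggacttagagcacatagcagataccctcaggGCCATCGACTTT
TRIM63 downstream probe: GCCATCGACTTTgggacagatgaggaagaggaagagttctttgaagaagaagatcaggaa
These probes share 12 bases of 60, so that the upstream probe is for the most part a separate reading of the same transcript.

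The upstream probe, which represents *TRIM63*, had log2 ratios of -0.65 on array 1, -0.68 on array 2, -1.05 on array 3 and -1.12 on array 4. *TRIM63* mRNA was thus lower on all 4 arrays, with arrays 1 and 2 nearer to 0 than arrays 3 and 4. The log2 signal of control cells was 7.96, 8.13, 8.24 and 8.30 on arrays 1 to 4, and that of treated cells 7.31, 7.45, 7.19 and 7.18. Every treated value lay below every control value. The mean log2 ratio was -0.87 ± 0.10 (SE, n = 4), or 0.546 times the control, with a 95% interval from -1.12 to -0.63 (limma adjusted P = 0.00397). The 3 downstream probes gave means of -1.02, -0.89 and -0.98, each called. They share most of their bases and are not independent readings. With normexp and loess the mean of the upstream probe was -0.72, and those of the downstream probes were -0.77, -0.70 and -0.65.

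*TRIM55* is read by a single probe, on the minus strand of chr9:19003488-19003547, and *TRIM54* by a single probe on the minus strand of chr15:65586928-65586987. In the following lines, capitals mark a longest run of bases shared with a probe of another of the 10 genes. Probes were compared with probes, not with the whole transcripts of relatives.
TRIM55 probe: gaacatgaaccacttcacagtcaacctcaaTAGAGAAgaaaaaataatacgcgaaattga
TRIM54 probe: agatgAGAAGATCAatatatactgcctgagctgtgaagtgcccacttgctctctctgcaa
FOXO1 probe: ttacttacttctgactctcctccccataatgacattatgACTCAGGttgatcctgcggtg
NEDD4 probe: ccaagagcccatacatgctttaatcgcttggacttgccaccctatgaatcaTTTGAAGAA
Over all 401 pairs of probes of different genes, the longest such run was 9 bases of 60. The bases G and C made up 35 to 45% of each of the 31 probes.

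The *TRIM55* probe had log2 ratios of -0.93, -0.67, -1.02 and -1.05 on arrays 1 to 4. It was lower on all 4 arrays, and array 2 was nearest to 0. Its log2 signal was 11.48, 11.44, 11.44 and 11.39 in control cells and 10.55, 10.77, 10.42 and 10.34 in treated cells. The treated and control values did not overlap. The mean was -0.92 ± 0.08 (SE, n = 4), or 0.528 times the control (limma adjusted P = 0.00185). Of the 15614 tested genes, 253 had a mean log2 ratio as low as that of *TRIM55* (1.62%), and 307 as low as that of *TRIM63* (1.97%).

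*TRIM54*, the third of the family, had log2 ratios of -0.23, -0.48, -0.33 and -0.47 on arrays 1 to 4. All 4 were negative and smaller in size than those of *TRIM63* on the same array. The mean was -0.38 ± 0.07 (SE, n = 4), or 0.769 times the control (limma adjusted P = 0.0148). The call was lost without array 2 (mean -0.34) and without array 3 (mean -0.40).

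*TRIM32*, a RING-finger ligase outside the MuRF family, tags desmin and thin filament proteins and is mutated in a form of limb-girdle muscular dystrophy. Its 5 probes are copies moved by 1 base, so they form a single reading. The representative probe had log2 ratios of 0.31, -0.08, 0.02 and 0.27 on arrays 1 to 4. It was above 0 on 3 arrays and did not pass the test (mean 0.13, 95% interval -0.08 to 0.34, limma adjusted P = 0.307). The means of the 5 probes ranged from 0.13 to 0.24, and none was called.

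*FBXO32* encodes atrogin-1, the substrate-binding F-box subunit of an SCF ligase, which tags the initiation factor eIF3f and the myogenic factor MyoD. Its probe had log2 ratios of -0.07, 0.17, 0.10 and -0.12 on arrays 1 to 4. The values lay on both sides of 0, and *FBXO32* was not called (mean 0.02, limma adjusted P = 0.852). The 95% interval of its mean, -0.16 to 0.20, does not reach the upper end of the interval of *TRIM63* at -0.63. The other F-box gene, *FBXO30*, encodes MUSA1, an atrophy ligase held down by BMP signalling. Its representative probe had log2 ratios of -0.26, -0.14, -0.10 and -0.32. All 4 were negative, yet *FBXO30* was not called (mean -0.20, 95% interval -0.36 to -0.04, limma adjusted P = 0.074). Its other probe, which adjoins it on the transcript, had a mean of -0.13.

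*NEDD4* encodes a HECT ligase, which takes ubiquitin onto itself before passing it to its target, and which has been linked to the loss of muscle after denervation. Its representative probe had log2 ratios of -0.30, -0.16, -0.36 and -0.43 on arrays 1 to 4. The mean was -0.31 ± 0.07 (SE, n = 4), or 0.804 times the control (limma adjusted P = 0.0234). All arrays were lower, but the call was lost when any array was left out, with means from -0.36 to -0.27. The second *NEDD4* probe begins where the first ends on the transcript, and was not called (mean -0.21, limma adjusted P = 0.0687). The first probe has 60 bases but covers 584 on the genome (chr1:132532569-132533152), so its sequence is split there, whereas the second lies unbroken at chr1:132533153-132533212.

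The FOXO factors are forkhead proteins that bind the promoters of the atrophy ligases. *FOXO1* and *FOXO3* are the members best known for driving atrophy, and *FOXO4* is the third Akt-controlled form in muscle. The *FOXO1* probe (chrUn:282106935-282106994) had log2 ratios of -0.20, -0.64, -0.51 and -0.51 on arrays 1 to 4. *FOXO1* mRNA was lower on all 4 arrays and nearest to 0 on array 1. The mean was -0.46 ± 0.09 (SE, n = 4), or 0.726 times the control (limma adjusted P = 0.015). The call was lost without array 2 (mean -0.40) and without array 3 (mean -0.45).

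*FOXO3* has 9 probes in 3 stretches of the transcript, the most of the 10 genes. The first stretch holds 5 probes moved by 1 base, and the capitals in the middle one (chr10:53239977-53240036) mark the bases that all 5 share. It is shown because the readings of *FOXO3* differed along the transcript.
FOXO3 coding probe: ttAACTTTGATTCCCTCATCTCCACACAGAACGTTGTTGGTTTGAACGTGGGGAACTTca
The means of these 5 probes ranged from -0.04 to 0.07, those of the 3 probes of the middle stretch from -0.12 to -0.08, and the single probe of the last stretch had -0.30. The mean log2 signal over both channels was 6.27 to 6.50 in the first stretch and 8.78 for the last probe. Brightness thus changed along with place on the transcript, and its part in the difference was not tested. The last probe is the brightest and represents the gene. Its log2 ratios were -0.15, -0.14, -0.61 and -0.32, all negative, and it was not called (limma adjusted P = 0.0643, 95% interval -0.53 to -0.08). Against the mean of the first stretch, the last probe was lower by an amount given here as a difference of log2 ratios, -0.30, -0.17, -0.35 and -0.42 on arrays 1 to 4. The sign was the same on every array, with a mean of -0.31 and an SD of 0.11. This difference was chosen after its values were seen, and its exact permutation P was the smallest that 4 arrays allow (1 in 8). On all 9 probes the lowest ratio was that of array 3.

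*FOXO4* has 5 probes moved by 1 base. The representative probe had log2 ratios of -0.38, -0.14, 0.02 and 0.25 on arrays 1 to 4. The arrays thus lay on both sides of 0, and no probe was called (mean -0.06, 95% interval -0.32 to 0.20, limma adjusted P = 0.706). The means of its 5 probes ranged from -0.19 to -0.06.

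**Figure D2:**
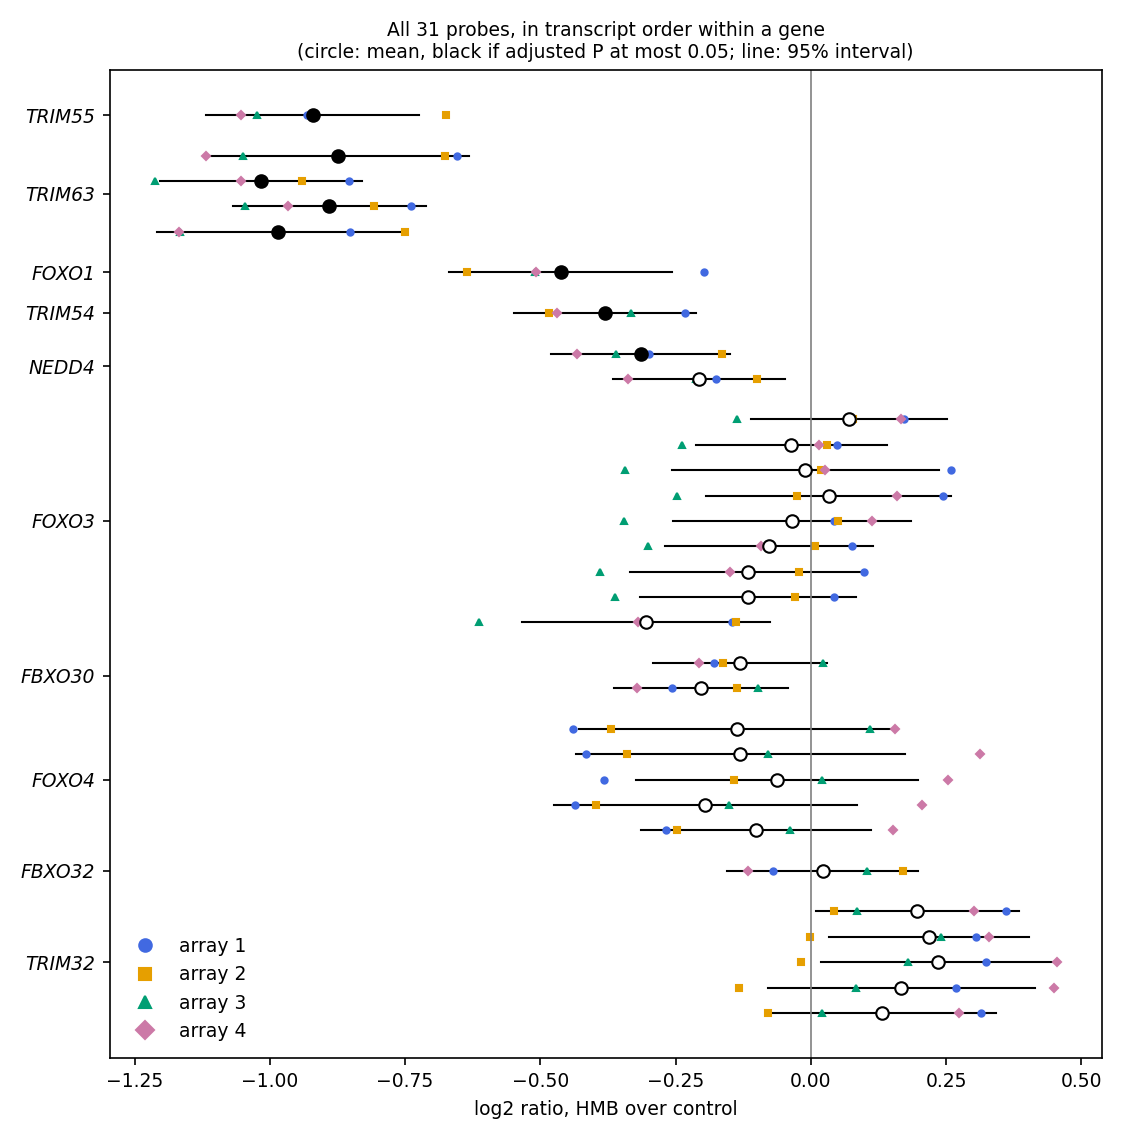
All 31 probes of the 10 genes (vertical axis, in transcript order within a gene) with their log2 ratio of HMB-treated over control cells (horizontal axis). Small symbols are the 4 arrays, circles the mean (black where called) and lines the 95% interval. The 4 probes of *TRIM63* lie between -1.02 and -0.87. Those of *FOXO3* move from near 0 to -0.30 along the transcript, where the last probe is also the brightest.

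The order of the mean log2 ratios, from the lowest, was *TRIM55*, *TRIM63*, *FOXO1*, *TRIM54*, *NEDD4*, *FOXO3*, *FBXO30*, *FOXO4*, *FBXO32* and *TRIM32*. Of the 9 pairs of neighbours in this order, 8 differed by less than the SD of their difference over the arrays. The exception was the step from *TRIM63* to *FOXO1*, with a mean difference of -0.41 and an SD of 0.26. With 4 arrays, the smallest P that a two-sided exact sign-flip permutation test can give is 1 in 8, so by this test no difference between members could pass 0.05.

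Against each other member, *TRIM63* was compared within arrays. It had the lower log2 ratio on all 4 arrays against 8 of the 9 others. The mean differences ran from -0.41 against *FOXO1* to -1.01 against *TRIM32*, and the exact permutation P had its smallest possible value in each of the 8, or 0.141 adjusted over the 9 pairs. Against *FBXO32*, the other classical marker of atrophy, the differences lay between -1.15 (array 3) and -0.58 (array 1), with a mean of -0.90 and an SD of 0.24. The ratios of *TRIM63* and *FBXO32* were thus unequal on every array. Against *TRIM55* the differences were 0.28, 0.00, -0.02 and -0.06, with a mean of 0.05 and an SD of 0.16. *TRIM63* and *TRIM55* did not differ beyond their spread (exact permutation P = 1).

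**Figure D3:**
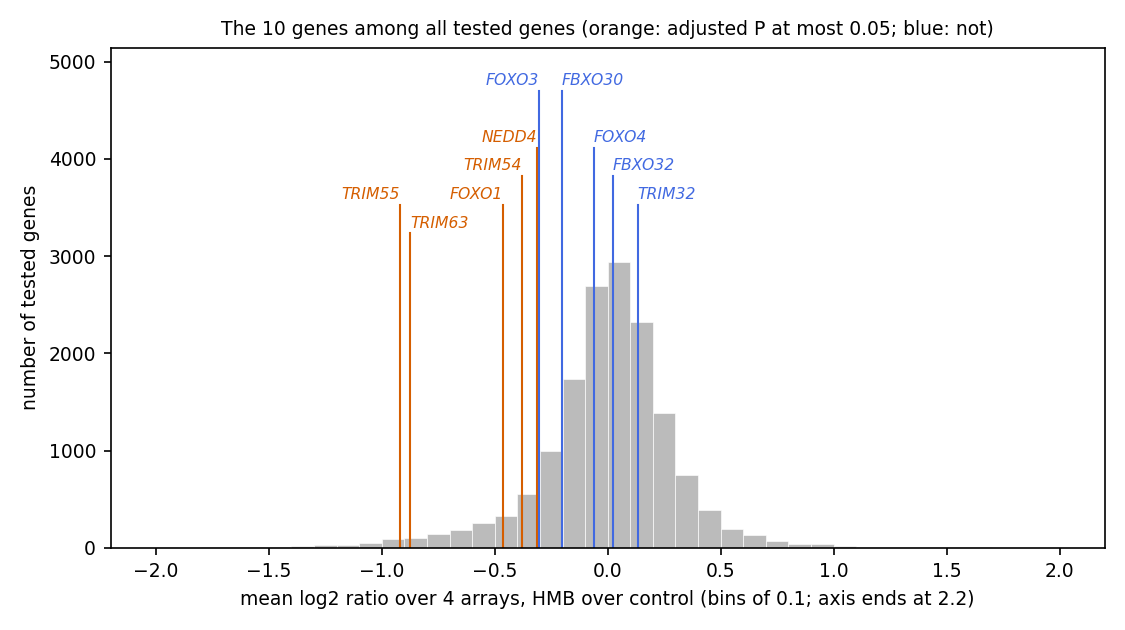
Number of tested genes (vertical axis) by mean log2 ratio over the 4 arrays (horizontal axis), with a vertical line at the mean of each of the 10 genes, orange where called and blue where not. The bulk of the 15614 genes lies around the median of 0.02, while *TRIM55* at -0.92 and *TRIM63* at -0.87 lie in the lower tail.

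The 5 genes most like *TRIM63* were sought among 15605 genes with a value on every array, by the Euclidean distance between their 4 log2 ratios. They were *CLCN4*, a chloride and proton exchanger (distance 0.116, mean -0.88), *OSBPL3*, an oxysterol-binding protein (0.119, mean -0.92), *TCF15*, a helix-loop-helix factor of the somite (0.122, mean -0.86, or -0.43 with normexp and loess), *OPN3*, an opsin found outside the eye (0.144, mean -0.82), and a transcript without a gene symbol that the files describe as like an MHC class II alpha chain (0.148, mean -0.83). Among the other members, *TRIM55* came nearest, as number 42 in this order, followed by *FOXO1* as number 921. *FBXO32* was number 7476.

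The fall of the MuRF genes went together with a fall of the muscle programme. All 14 tested myogenic markers were called lower, against 11.6% of all genes, with a median of -0.90, and all were well above background in both channels on every array. The list holds *MYF5*, *MYF6*, *MYOD1*, *MYOG*, *DES*, *NCAM1*, *MYH3*, *MYH8*, *ACTC1*, *ACTA1*, *CKM*, *TNNT3*, *TNNC2* and *MYL4*, while *PAX7*, *CDH15* and *MYMK* are not on the array by name. The median of the list was -0.43, -0.83, -1.06 and -1.27 on arrays 1 to 4. The summed signal of the 14 genes in treated cells was 82.3%, 59.5%, 53.1% and 49.5% of that in control cells, and the probe with the strongest signal was that of *ACTC1*, the cardiac actin of young muscle fibres. Arrays 3 and 4 were thus the lowest for the marker list, as they were for *TRIM63*, *TRIM55* and *NEDD4*, whereas for *FOXO1* and *TRIM54* array 2 was the lowest. The direction of *ACTC1* (mean -0.38) depended on the dye normalisation, since its mean was 0.69 without lowess, where the median of the list was -0.54. Without lowess the means of *MYH3*, *ACTA1* and *MYL4*, also of strong signal, were -0.37, -0.38 and -0.34. The summed signals are from values with lowess, so their percentages depend on it as well. In bulk cultures, fewer differentiated cells and less mRNA per cell cannot be told apart. The part of the myogenic markers in the fall of *TRIM63*, *TRIM55*, *TRIM54*, *FOXO1* and *NEDD4* was not tested. Without array 2, 3 or 4, 8 of the 14 markers were called, while the calls among all genes went from 3504 of 15614 to 1408 of 15716, 1507 of 15700 and 2749 of 16030. With no filter on dim probes 4 were called, against 2059 of 24998 genes. Under the methods' t-test none was, against 411 of 15614 genes. At an unadjusted P under 0.05 there were 12 of the 14 by that test, against 8435 of all 27383 tested probes. That test is named in the study's workbook and was run here on the deposited ratios, not in the authors' software, so its calls need not be theirs.

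Of 8 tested fibroblast markers, 2 were called (25.0%, against 22.4% of all genes), both higher. They were *PDGFRA*, a receptor of mesenchymal progenitors (1.09, 1.38, 1.46 and 2.19 on arrays 1 to 4, mean 1.53), and *FAP*, a surface protease (mean 0.42). The signal of *PDGFRA* in control cells was low, with a median of 2.50 times background, so the size of its rise is uncertain. The 6 others were *COL1A2*, *COL3A1*, *DCN*, *LUM*, *THY1* and *POSTN*, with means from -0.21 to 0.15. The median of the list was 0.33 on array 1 and -0.06, -0.07 and -0.07 on arrays 2 to 4, and the summed signal of its 9 genes was 120%, 93.0%, 91.4% and 72.0% of that in control cells, with the strongest signal from the probe of *COL1A2*. Without array 1, 2 or 3, 1 of the 8 was called, against 2712 of 15747, 1408 of 15716 and 1507 of 15700 genes. Without lowess, 6 were called, against 4237 of 15609 genes. The median was then 0.66, against 0.04 for all genes, so the level of this list depends on the dye normalisation. *PDGFRA* rose where the MuRF genes fell, by 0.89 with normexp and loess, and its part in their fall was not tested. The methods include a preplating step meant to reduce fibroblasts.

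Markers of endothelial cells and adipocytes were at or near background. None of 5 endothelial markers (*PECAM1*, *CDH5*, *VWF*, *KDR* and *TEK*) and none of 4 adipocyte markers (*ADIPOQ*, *FABP4*, *LEP* and *CIDEC*) passed the filter on dim probes. Of 3 leukocyte markers, *CD68* and *CD14* were well above background on every array, with a median signal over background in control cells of 3.97 and 131. Neither was called by limma (means -0.29 and 0.02), and *CD3E* was at background on every array.

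**Figure D4:**
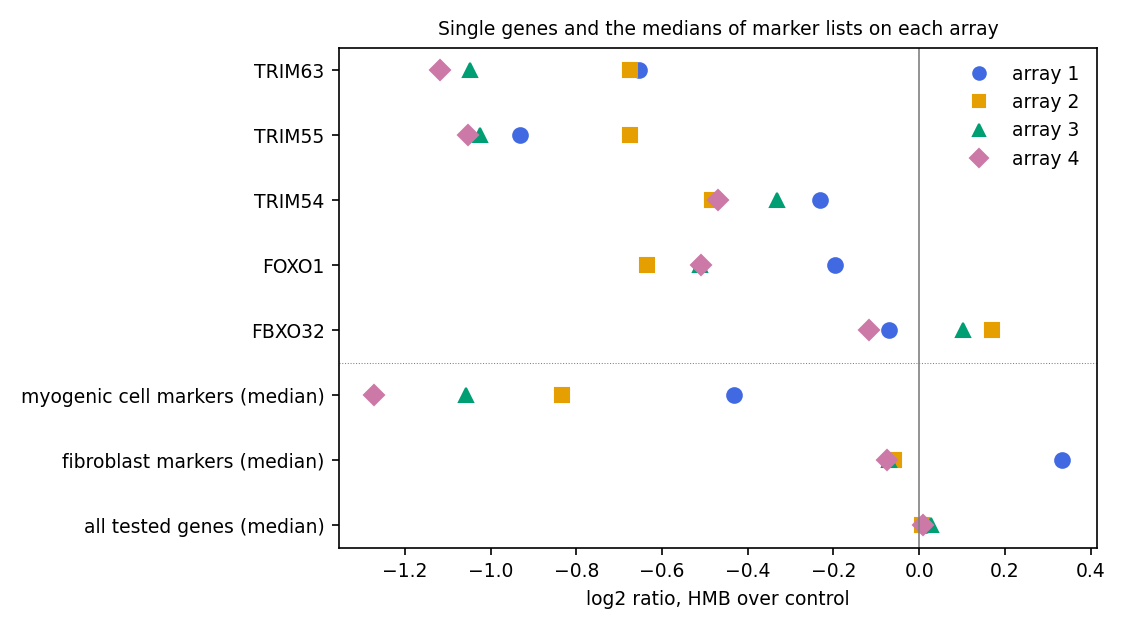
Log2 ratios of HMB-treated over control cells (horizontal axis) on each of the 4 arrays for 5 single genes (upper rows) and as medians of the myogenic markers, the fibroblast markers and all tested genes (lower rows). *TRIM63* runs from -1.12 to -0.65 and the myogenic median from -1.27 to -0.43, while *FBXO32* and the median of all genes stay near 0.

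Other genes of the pathway were grouped in 6 lists. The transcripts of proteins that the ligases are reported to bind or tag, mostly of the sarcomere, had the lowest median of the 6. Of 21 tested, 14 were called lower and none higher (66.7% called, against 22.4% of all genes), with a median of -0.77. Normexp with loess and no lowess each gave 14 lower and 2 higher, no filter on dim probes gave 8 lower of 23, the methods' t-test 2 lower, and an array left out 10 to 14 lower. In the same order, the calls among all genes were 3336 of 15614, 4237 of 15609, 2059 of 24998 and 411 of 15614. With an array left out they were 1408 of 15716 to 2749 of 16030. *MYH2*, a fast myosin heavy chain, had log2 ratios of -1.51, -1.71, -1.96 and -2.67 on arrays 1 to 4 (mean -1.96) and was well above background in treated cells on 2 of the 4 arrays, so the size of its fall is uncertain, and with normexp and loess it was -0.72. *MYH2* passed the filter only through the channel of control cells, in which it is higher. With a filter on both channels 13 of 20 genes of the list were called lower and none higher, against 3174 of 14808 genes called. *MYH7*, the slow myosin heavy chain, had a mean of -1.15 (-0.54 without lowess), and *MYL3*, a slow myosin light chain, -1.03. The medians of the list were -0.27, -0.68, -0.75 and -0.99 on arrays 1 to 4. Of the 21 genes, 5 are also in the myogenic list, and of the 16 that are not, 9 were called lower, with a median of -0.61. The part of the myogenic markers in this fall was not tested.

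Of 25 tested genes known to be switched on or off by FOXO factors, 9 were called lower and 1 higher (40.0% called, against 22.4% of all genes), with a median of -0.20, against 0.02 for all tested genes. The lowest was *PPP1R3C*, which directs glycogen synthesis, with -0.48, -0.72, -0.73 and -1.29 on arrays 1 to 4 (mean -0.81). Its second brightest probe had -0.37 and was not called, so the size of its fall and its place as the lowest depend on the probe. *CDKN1A*, the inhibitor p21 of the cell cycle, had a mean of -0.72, and *GADD45A*, a stress gene also induced in denervated muscle, -0.61. With normexp and loess *PPP1R3C* (-0.56) was not the lowest, since *CDKN1A* (-0.58) and *GADD45A* (-0.65) lay below it. *CDKN1A* also rises as myoblasts leave the cycle to differentiate, and the part of differentiation in its fall was not tested. The single gene that rose, *GABARAPL1*, encodes a protein of the autophagosome membrane (1.14, 0.63, 1.00 and 0.25, mean 0.75). Its call was lost without array 1 and without array 3, and its mean was 0.34 with normexp and loess. Without array 2 the number called was 6, against 1408 of 15716 genes, and without array 3 it was 5, against 1507 of 15700. Under the methods' t-test 1 was called lower and 1 higher, against 411 of 15614 genes. With no filter on dim probes 6 of 28 were called, against 2059 of 24998 genes. With the channels as separate samples and no replicate block 5 were called, against 1206 of 15614 genes.

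Of 23 other ligases with a known place in muscle, 7 fell and 2 rose (39.1% called, against 22.4% of all genes), with a median of -0.15. *NEDD4L*, the nearest relative of *NEDD4* and a regulator of membrane channels, had log2 ratios of -0.66, -0.98, -1.13 and -1.38 on arrays 1 to 4. Its mean was -1.04 ± 0.12 (SE, n = 4), and -0.63 with normexp and loess. *FBXW7*, an F-box protein that targets cyclin E, fell as well (-0.27). *MDM2*, the ligase of p53, rose (0.32), as did *FBXO21*, an F-box gene (0.36), whose signal in control cells was well above background on 1 of the 4 arrays. Neither rise was called with normexp and loess (0.05 and 0.08), which gave 6 lower and none higher, or without lowess, which gave 2 lower and none higher. *FBXO21* passed the filter only through the channel of treated cells, in which it is higher. With a filter on both channels 7 of 22 were called lower and 1 higher, against 3174 of 14808 genes called. In place of 9 calls there were 5 without array 1, 1 without array 2, 1 without array 3 and 3 without array 4. The calls among all genes were then 2712 of 15747, 1408 of 15716, 1507 of 15700 and 2749 of 16030. They were 3336 of 15614 with normexp and loess and 4237 of 15609 without lowess. The share called in this list was thus below that of all genes without lowess and without array 2, 3 or 4.

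For the supply of ubiquitin and the core of the SCF ligases, 3 genes were called lower and 3 higher of 22 tested, a share of 27.3% against 22.4% of all genes, with a median of 0.00. Without lowess 9 were called higher and none lower, and the median was 0.19, so the direction of the list depends on the dye normalisation. Among all genes, 4237 of 15609 were then called, with a median of 0.04. By probe, 4633 were higher and 3198 lower. *SKP1*, the adaptor that holds F-box proteins such as atrogin-1, fell (mean -0.31), as did the conjugating enzyme *UBE2G1* (-0.26). Without lowess the mean of *SKP1* was 0.05. *UBE2J1*, a conjugating enzyme of the endoplasmic reticulum, rose (0.46), as did *NAE1*, which activates the ubiquitin-like NEDD8 (0.35), and *RPS27A*, a fusion of ubiquitin and a ribosomal protein (0.34, or 0.65 with normexp and loess and larger still without lowess). Without array 2 or array 3 limma called none of them, with 6 and 8 of the 22 at an unadjusted P under 0.05, and without array 4 it called 2. Among all genes it then called 1408 of 15716, 1507 of 15700 and 2749 of 16030. Of all tested probes, 7767 of 27521 without array 2 and 7862 of 27492 without array 3 had an unadjusted P under 0.05.

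Among 29 tested regulators of FOXO factors and of ligase transcription, 3 fell and 3 rose (20.7% called, below the 22.4% of all genes), and the median was 0.02. The genes that fell were *MEF2C*, a partner of the myogenic factors (-0.56), *PRKAA2*, the muscle form of the AMPK catalytic subunit (-0.54, or -0.32 with normexp and loess), and *MYOG*, which binds the promoters of *FBXO32* and *TRIM63* in denervated muscle (-0.42). *SGK1*, a kinase that phosphorylates FOXO3, rose (0.41, 0.37, 0.46 and 0.86 on arrays 1 to 4, mean 0.52). *FKBP5*, a target and brake of the glucocorticoid receptor (0.34), and *PIK3R1*, the regulatory subunit of PI3 kinase (0.31), rose too. Without array 2 the number called was 3, against 1408 of 15716 genes, and without array 3 it was 2, against 1507 of 15700.

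Of 22 tested relatives from the FOX and TRIM families, 4 rose and 2 fell (27.3% called, near the 22.4% of all genes), with a median of 0.13. *FOXM1*, a forkhead factor of dividing cells, rose (0.66, 0.34, 0.11 and 0.73, mean 0.46), as did *TRIM37* (0.42), a ligase of peroxisomes and centrosomes, and *TRIM68* (0.35). The second brightest probe of *TRIM68* had -0.27, so its direction depends on the probe. *FOXC2* (-0.32) and *FOXJ1* (-0.32) fell, and *FOXC2* was well above background in treated cells on 2 of the 4 arrays. *FOXC2* thus passed the filter only through the channel of control cells, in which it is higher. With a filter on both channels 5 of 21 were called higher and 1 lower, against 3174 of 14808 genes called. With normexp and loess *FOXM1* (0.22), *TRIM68* (0.15), *FOXC2* (-0.13) and *FOXJ1* (-0.07) were not called, and 1 gene was higher and 1 lower, against 3336 of 15614 genes. Without lowess *FOXC2* (-0.58) and *FOXJ1* (-0.40) were called, while *FOXM1* (0.37) and *TRIM68* (0.21) were not. The list then had 1 higher and 2 lower, against 4237 of 15609 genes. Without array 2 the number called was 1, against 1408 of 15716 genes, and without array 3 it was 2, against 1507 of 15700.

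**Figure D5:**
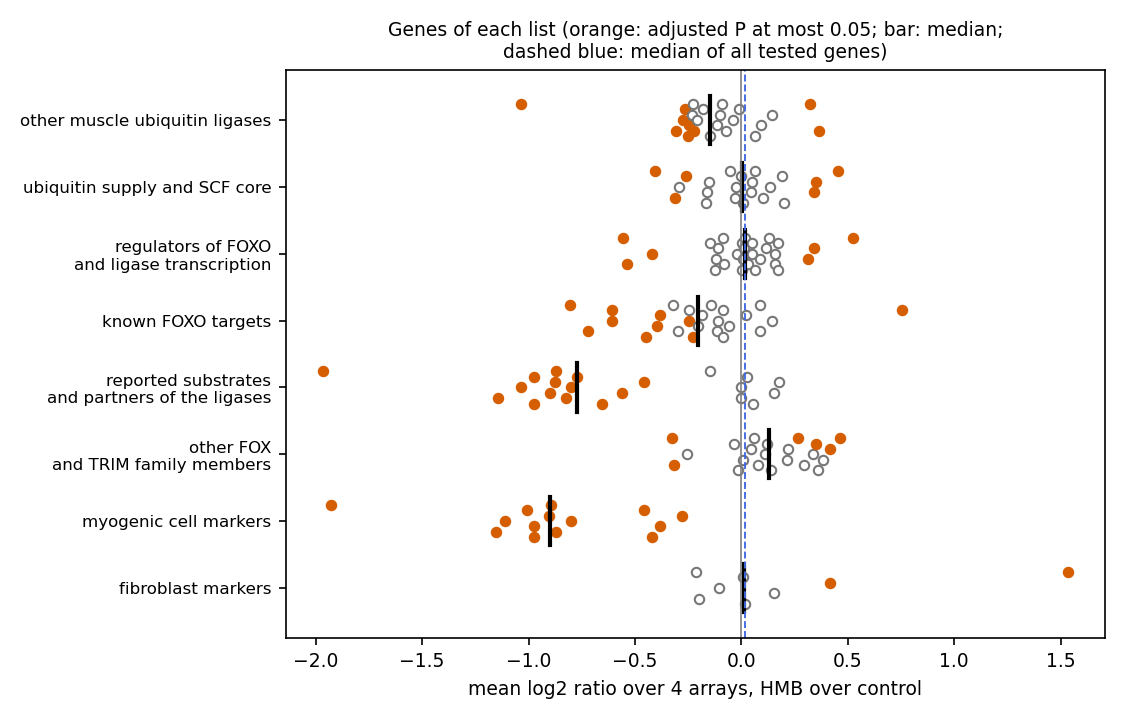
Mean log2 ratio over the 4 arrays (horizontal axis) of each tested gene in the 6 pathway lists and in the myogenic and fibroblast markers (rows). Orange points are called, open points are not, black bars are the medians and the dashed line is the median of all tested genes at 0.02; the substrates (-0.77) and the myogenic markers (-0.90) have the lowest medians.

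The calls of *TRIM63* and *TRIM55* held whichever array was left out, as did those of 23 of the 47 other genes named. Under the methods' t-test neither representative probe was called, while 2 of the 3 downstream *TRIM63* probes were (adjusted P = 0.0456 and 0.0464).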

How the data were processed

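The authors scanned the arrays and deposited the output of Feature Extraction, version 10.10.1.1 per the file headers. The deposited values used are the log10 ratio of Cy5 over Cy3, which the authors made by background subtraction and linear and lowess dye normalisation, and the deposited processed and raw intensities of both channels. The authors' series table holds the same log10 ratios. The deposited marks of spots are 0 or 1 per the file headers.

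Log10 ratios were multiplied by 3.32. Control spots and spots marked non-uniform or outlying were left out. Tested probes had values on 3 or more arrays and 1 channel well above background on each of the 4. limma 3.58.1 (R 4.3.3, intercept only, empirical Bayes) was used with the Benjamini and Hochberg adjustment. Files were read with data.table (version 1.17.8), and the summaries used scipy 1.17.1, pandas 2.3.3 and numpy 2.4.6 under Python 3.11.15, and figures were drawn with matplotlib 3.10.9. limma was tested on simulated data.

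Named genes are all members, the 3 lowest and 3 highest called genes of each list with the same sign on all arrays, the cell type markers, and the 5 genes nearest to *TRIM63*; the values of 2 genes that this rule takes are not reported here. The members and lists were chosen with earlier results of these data known. Lists are described by counts and medians, without a test. Probe sequences and places come from the files. Alternatives were normexp with loess, no lowess, the methods' t-test (from a supplementary workbook), a trended robust prior, separate channels with and without the array as replicate block, marked spots kept, no filter, a filter on both channels, the series table, a minimum of 1.3-fold, other choices of probe, and each array left out.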

Additional observations from a re-analysis of the deposited data

Results flagged for a closer look

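Over 88 sets of 4 array values, 4 had 1 array far from the others by Dixon's criterion. Chance alone does this in about 1 of 20 sets, which is about this number. In *FOXO3*, the probes that begin at bases 1297 and 1300 of the transcript had log2 ratios of -0.24 and -0.35 on array 3, against 0.02 to 0.05 and 0.04 to 0.11 on the other arrays. These probes overlap by all but 3 bases and are a single reading. *MYH7*, the slow myosin heavy chain, had a log2 ratio of -0.70 on array 1 and between -1.32 and -1.25 on the others. The median log2 ratio of the 8 fibroblast markers was 0.33 on array 1 and between -0.07 and -0.06 on the others.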

How the results depend on the processing

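Every alternative kept the 5 called genes negative. Alternatives that changed only the test, the filter or the threshold used the same ratios, as did the series table, and could not change a sign. The 6257 called probes, 3071 higher and 3186 lower, became 768 under the methods' t-test (named in the study's workbook), 2226 without a replicate block (channels as separate samples), 3690 with no background filter, 3863 with a minimum of 1.3-fold, and 2573 to 4957 with an array left out; ratios centred without lowess gave 4633 higher and 3198 lower. The 8 called probes of the members became 2 under the methods' t-test (both of *TRIM63*), 5 without the block, and 5 to 7 with an array left out. By representative probe, the 5 called genes became 0 under the methods' t-test, with 6 of the 10 at an unadjusted P under 0.05. By that test 8435 of all 27383 tested probes had such a P. The 5 called genes became 2 without the block (*TRIM55* and *TRIM63*), 3 with no filter, and 2 to 4 with an array left out. With the array as replicate block, which is the main test in another form, the calls were necessarily the same 5 genes. The mean of *TRIM63* was -0.72 with normexp and loess, and -0.95 to -0.79 with an array left out. Over all alternatives it lay between -1.02 and -0.72. The methods' t-test uses the same mean of -0.87 and gave an adjusted P of 0.0722, where all alternatives gave 0.00125 to 0.0722. *FBXO30* was called with normexp and loess (-0.20, adjusted P = 0.0453; range 0.0453 to 0.201).

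Among values that were not called, *FBXO32* was negative with normexp and loess (-0.015) and lay between -0.028 and 0.068 with an array left out, *FOXO4* between -0.17 and 0.044, and the difference of *TRIM63* and *TRIM55* between -0.030 and 0.083. The main value of that difference, 0.046, became 0.21 with normexp and loess. It was negative without lowess (-0.064), with the mean of all tested probes (-0.020) and with the second brightest probe (-0.095). Negative without array 2 or 3 was *FBXO32* (-0.028 and -0.00551), positive without array 1 *FOXO4* (0.044). Of the called list genes, *ACTC1* was positive with normexp and loess (0.0072) and without lowess (0.69), *SKP1* was positive without lowess (0.054), and *TRIM68* was negative with the mean of its tested probes (-0.23) and with its second brightest probe (-0.27). The cause was not tested.

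Of 170 means of single members under an alternative, 145 kept sign and call, as did 600 of 796 of the other named genes. Signal over background was 3.07 or more for every member probe. Precision is limited by 4 arrays of 1 slide without a dye exchange.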
